A study of Mus musculus with 8 samples.

Results

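The 35 imprinted genes described here were the rows of the deposited table, among 54532 genes, whose gene name is on a fixed list of mouse imprinted genes, grouped by imprinted locus. They lie in 18 loci, 8 of which hold several of the 35 genes and 10 a single gene. The libraries were made from brown adipose tissue, a fat depot that burns fuel for heat, of 4 mice labelled TG (CLCF1-ATG), transgenic for the interleukin-6 family cytokine CLCF1, and of 4 mice labelled WT. The mice carry the numbers 1, 2, 3 and 5 in each genotype, and the sources used here give neither the promoter that drives the transgene nor the strain, sex or age. The question was which transcripts differ in brown fat with CLCF1 in excess, and here how the imprinted genes of each locus stand in that comparison.

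Genomic imprinting is the silencing of a gene on the chromosome inherited from the mother or on the chromosome inherited from the father, set by DNA methylation laid down in the germ cells at control regions that each serve a cluster of genes. Many imprinted genes regulate growth before birth and are read far less in adult tissue. In fat, Dlk1 and Ndn are known as brakes on the formation of adipocytes in mice, Grb10 as a brake on insulin signalling, and Mest as a gene tied to the growth of adipocytes. The table gives 1 value per gene, so maternal and paternal transcripts are not separated in it.

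Depth, labels and tissue markers set the frame for the values. The reads behind the deposited FPKM (fragments per kilobase of gene and per unit of library size, a level scaled by gene length) numbered 18494022 to 20183840 in TG libraries and 13734231 to 15751302 in WT libraries. Clcf1 stood at 78.7 to 89.9 FPKM in TG and 0.434 to 3.40 FPKM in WT, so all 8 libraries followed their labels. Reads on the mitochondrial chromosome took 6.09% to 7.34% of TG reads and 24.1% to 37.5% of WT reads. A gene was tested with limma on log2(FPKM + 1) when it reached 0.5 FPKM in at least 4 libraries, and called when its Benjamini-Hochberg adjusted p, over all 12508 tested genes, was below 0.05. Log2 changes are differences of group means (TG minus WT) on that scale, which understates the change of low genes.

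Marker lists of the cell types in the tissue moved as well, and their part in any change below was not tested. Of 6 brown adipocyte markers 5 fell and 1 was not called (summed level 612 to 1020 FPKM in TG, 6907 to 9796 FPKM in WT), all 6 white adipocyte markers rose (1156 to 1357 FPKM in TG, 283 to 329 FPKM in WT), and 4 of 6 markers shared by adipocytes rose with 0 lower (6916 to 9817 FPKM in TG, 4130 to 5196 FPKM in WT). All 5 endothelial markers fell (16.4 to 30.4 FPKM in TG, 65.2 to 152 FPKM in WT), as did all 4 tested smooth muscle and pericyte markers of 5 (17.3 to 37.0 FPKM in TG, 101 to 135 FPKM in WT) and all 5 erythroid markers (1529 to 1901 FPKM in TG, 5110 to 12890 FPKM in WT). Of 8 progenitor markers 3 fell and 1, Col15a1, rose (107 to 133 FPKM in TG, 122 to 236 FPKM in WT). Of 5 macrophage markers 3 rose (104 to 127 FPKM in TG, 60.3 to 121 FPKM in WT). Of the 3 neutrophil markers tested, of 5 listed, 3 fell (2.11 to 25.6 FPKM in TG, 12.02 to 378 FPKM in WT), and of 2 lymphocyte markers tested, of 5 listed, 1 rose (1.13 to 11.1 FPKM in TG, 0.648 to 3.05 FPKM in WT). In the Schwann cell list 1 of 3 tested markers, of 5, fell, which was S100b (7.02 to 13.5 FPKM in TG, 58.2 to 82.9 FPKM in WT for the list). Of 10 skeletal muscle markers 8 were tested and 0 called, at 156 to 1565 FPKM in TG and 41.7 to 2749 FPKM in WT, the upper values being those of TG 5 and WT 2. Neuronal markers summed to 0.801 to 1.35 FPKM in TG and 0.403 to 1.31 FPKM in WT, with Dbh and Th, which define noradrenergic neurons, at 0 reads in every library, and 0 of the 1 tested were called.

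Among all tested genes 5513 (44.1%) were called, with 22.3% higher and 21.8% lower in TG. Of the 35 imprinted genes 22 passed the filter on low values and 13 did not. Among the 22, 10 were called higher (45.5%), 3 lower (13.6%) and 9 were not called, and the median log2 change was 0.38 against 0.01 over all tested genes. This is a description, since the filter lets a gene in through the group where it is high: Plagl1 entered through TG alone and Peg10 through WT alone. With no filter the median log2 change was -0.02 over the 34 imprinted genes fitted and -0.006 over all genes fitted. The 4 TG libraries lay wholly above the 4 WT libraries for 9 of the 22 genes and wholly below for 3, against 22.1% and 20.5% of all tested genes. Scaling each library by all its recovered reads gave a median of 0.32 over all genes in place of 0.01; the split was then 13 higher and 3 lower of the 22, and over all genes 5536 higher and 1442 lower. The genes that rose were Nnat, Nap1l5, Slc22a18, Grb10, Plagl1, Copg2, Impact, Zrsr1, Sgce and Peg3, and those that fell were Ndn, Cdkn1c and Peg10.

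**Figure D1:**
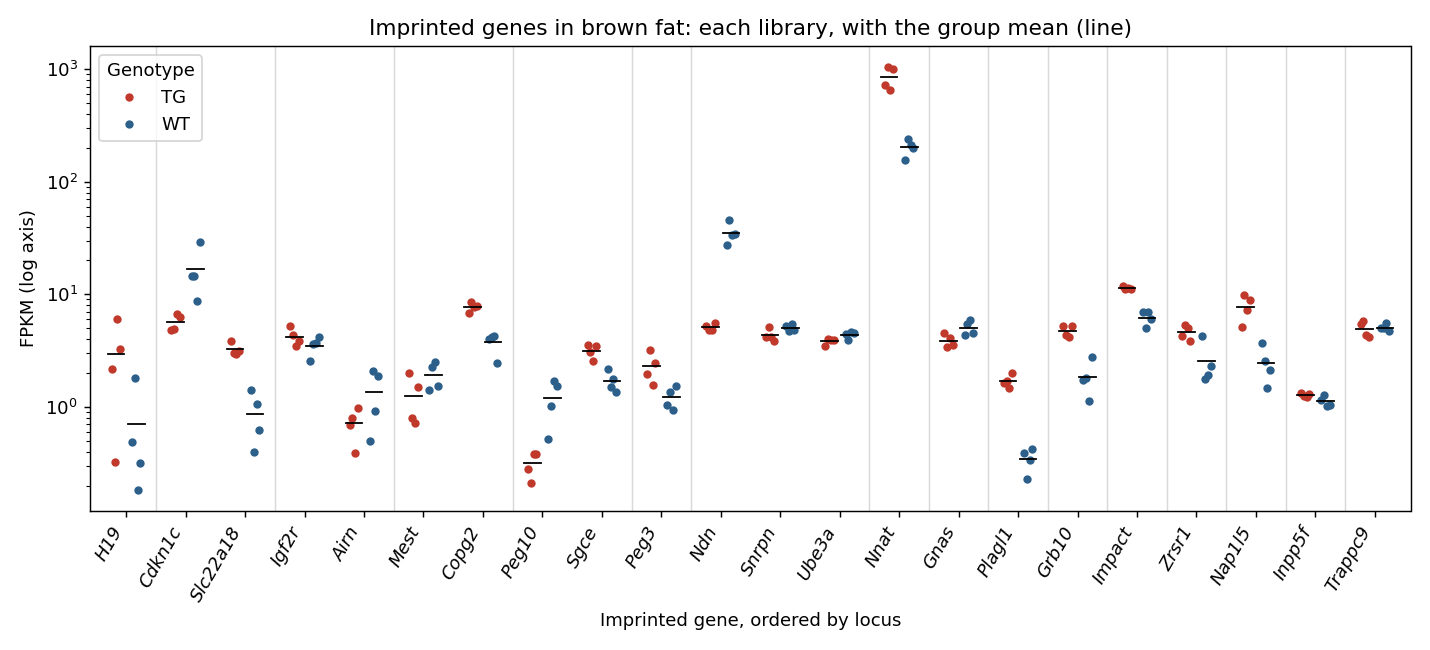
FPKM on a log axis of the 22 imprinted genes that passed the filter, in each TG library (red, left of each pair) and each WT library (blue), with the group mean as a line; grey lines part the loci. Nnat stands highest in both genotypes, and Ndn, Cdkn1c and Peg10 have every TG library below every WT library.

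**Figure D2:**
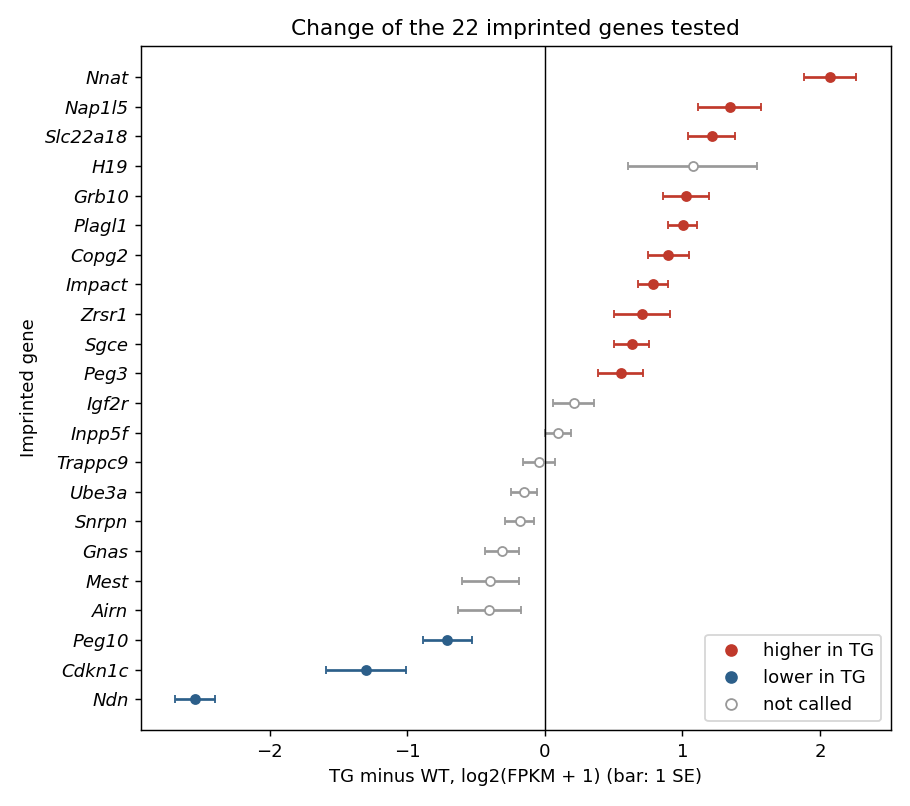
Log2 change in log2(FPKM + 1), TG minus WT, of the same 22 genes, ordered by size, with bars of 1 SE; filled points passed an adjusted p of 0.05. The points run from -2.54 for Ndn to 2.07 for Nnat, and 9 open points stand between -0.40 and 1.07.

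Sequence upstream of the start site is shown for 4 genes that rose: Nnat, Nap1l5 and Zrsr1, each of which lies inside a larger host gene and is compared with that host below, and Grb10, whose window, 1 of its 2 RefSeq windows, holds the most CpG sites among the 9 called genes, of 13, that had a RefSeq window. CpG is the dinucleotide whose methylation carries the imprint. The windows are the 250 bases before the RefSeq start site on the strand of the gene (GRCm38.p6, the assembly of mm10), with each CG in capitals. They are chr2:157559828-157560077 (plus strand) for Nnat, chr6:58907127-58907376 (minus) for Nap1l5, chr11:22971755-22972004 (plus) for Zrsr1 and chr11:12037421-12037670 (minus) for Grb10. The Nnat and Nap1l5 windows overlap an annotated exon. The Grb10 window lies inside the deposited bounds of that gene (11930508 to 12038683), so it is upstream of the RefSeq start only.
Nnat: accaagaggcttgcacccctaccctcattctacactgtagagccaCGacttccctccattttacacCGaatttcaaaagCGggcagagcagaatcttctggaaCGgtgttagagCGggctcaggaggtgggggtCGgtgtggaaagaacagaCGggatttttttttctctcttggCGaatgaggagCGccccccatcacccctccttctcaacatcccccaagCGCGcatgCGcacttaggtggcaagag
Nap1l5: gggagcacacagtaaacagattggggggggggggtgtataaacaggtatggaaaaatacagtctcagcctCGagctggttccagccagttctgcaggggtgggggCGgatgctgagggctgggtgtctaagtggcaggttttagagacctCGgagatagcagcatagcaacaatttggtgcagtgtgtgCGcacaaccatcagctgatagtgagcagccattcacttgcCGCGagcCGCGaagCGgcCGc
Zrsr1: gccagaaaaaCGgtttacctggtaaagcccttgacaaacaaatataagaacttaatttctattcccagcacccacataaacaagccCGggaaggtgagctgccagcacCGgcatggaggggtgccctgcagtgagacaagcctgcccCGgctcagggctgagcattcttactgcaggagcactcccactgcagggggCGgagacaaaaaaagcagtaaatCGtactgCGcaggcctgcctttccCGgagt
Grb10: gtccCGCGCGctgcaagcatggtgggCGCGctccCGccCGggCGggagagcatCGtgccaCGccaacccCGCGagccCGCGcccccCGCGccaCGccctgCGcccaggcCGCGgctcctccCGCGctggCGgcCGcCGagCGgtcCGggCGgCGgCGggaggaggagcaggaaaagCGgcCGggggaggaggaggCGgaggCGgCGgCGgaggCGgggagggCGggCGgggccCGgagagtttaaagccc
The Grb10 window holds 40 CG, a number reached by 1.31% of 32851 RefSeq promoter windows of that length, against a median of 6. The other Grb10 window holds 8, a number reached by 43.0% of windows. The printed windows of Nnat, Nap1l5 and Zrsr1 hold 12, 10 and 8, numbers reached by 33.5%, 37.8% and 43.0% of windows. The hexamer TGCCGC, the core of the motif bound by the imprint-keeping zinc finger protein ZFP57, was searched on both strands and stands in 8.68% of all windows. It occurs 1 time in the Nap1l5 window and in none of the other 3. TTCNNNGAA, the palindrome bound by STAT factors, reads the same on both strands and stands in 7.02% of all windows, and in none of these 4. A match is a description of the letters only. RefSeq promoters were given for 29 of the 35 genes.

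Nnat, which encodes neuronatin, a small membrane protein of the endoplasmic reticulum, was by far the most abundant of the 22 genes (ENSMUSG00000067786, chromosome 2, 157560078 to 157562522, plus strand). It stood at 727, 1047, 661 and 1011 FPKM in TG 1, 2, 3 and 5 and at 158, 238, 213 and 200 FPKM in WT 1, 2, 3 and 5. Every TG library was above every WT library, and the means were 861 ± 196 FPKM in TG and 202 ± 33.8 FPKM in WT (SD, n = 4 each), 4.26-fold higher. The log2 change was 2.07 (SE 0.192, limma adjusted p = 3.36e-05). All 6 white adipocyte markers listed above rose over the same libraries, as did 4 of 6 markers shared by adipocytes and 3 of 5 macrophage markers. Col15a1 and 1 of 2 tested lymphocyte markers rose too. Of the brown adipocyte markers 5 of 6 fell, as did all tested endothelial, smooth muscle and pericyte, erythroid and neutrophil markers. S100b and 3 of 8 progenitor markers also fell. The part of any of these in the rise of Nnat was not tested. Nnat lies wholly inside Blcap, a gene on the opposite strand, for all of its 2445 bases. Blcap, which encodes a membrane protein named for bladder cancer, also rose, to 46.3 ± 7.34 FPKM in TG against 28.0 ± 2.80 FPKM in WT (log2 change 0.70, limma adjusted p = 0.00217).

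Nap1l5 and Zrsr1 have the same arrangement, a short gene inside a larger gene on the other strand. Nap1l5, a member of the nucleosome assembly protein family (chromosome 6, 58905233 to 58907076, minus strand), stood at 5.14, 9.86, 7.19 and 8.92 FPKM in TG 1, 2, 3 and 5 and at 3.73, 2.58, 1.47 and 2.13 FPKM in WT 1, 2, 3 and 5. The groups did not overlap, and the log2 change was 1.34 (SE 0.228, limma adjusted p = 0.00122). Its host Herc3, a ubiquitin ligase gene, stood at 0.849 ± 0.102 FPKM in TG and 1.24 ± 0.127 FPKM in WT (SD, n = 4 each). Herc3 was called lower (log2 change -0.28, limma adjusted p = 0.0457), but 15 of 18 alternatives lost that call, with adjusted p from 0.0314 to 0.651.

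Zrsr1, a relative of the splicing factor U2AF (chromosome 11, 22972005 to 22976496, plus strand), stood at 4.30, 5.38, 5.03 and 3.85 FPKM in TG 1, 2, 3 and 5. In WT 1, 2, 3 and 5 it stood at 4.27, 1.75, 1.93 and 2.29 FPKM, so that WT 1 lay among the TG libraries and the other WT libraries below them. It was called higher (log2 change 0.70, SE 0.201, limma adjusted p = 0.0181). The call was lost without TG 2 (adjusted p = 0.0530), leaving out WT 2 and TG 5 together (0.0571) and testing with no filter (0.0534), over a range of 0.000355 to 0.0571. Its host Commd1, which takes part in copper handling and protein sorting, stood at 3.38 ± 0.413 FPKM in TG and 4.51 ± 0.783 FPKM in WT (SD, n = 4 each) and was not called (log2 change -0.32, adjusted p = 0.0726); without WT 5 it was called lower (-0.43, adjusted p = 0.0114), and the sign was positive when scaled by all reads (0.02) and with voom (0.02), over a range of 0.0114 to 0.932.

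Whether genes that share a locus changed alike was tested by their ratio within each library, which the scaling of a library moves little. Of 14 listed pairs 7 had both genes past the filter, and 5 of these differed between the genotypes with no overlap (two-sided exact permutation p = 0.0286 the lowest value possible with 70 ways to assign the labels; Benjamini-Hochberg adjusted p = 0.04 over the 7 pairs). Of all tested single genes 42.6% did not overlap between the genotypes. No such share was computed over pairs of other genes, so 5 of 7 is a description and not a trait of imprinted loci. The log2 ratio of Nnat to Blcap was 4.17 ± 0.374 in TG and 2.80 ± 0.300 in WT (SD, n = 4 each), a difference of 1.37. For Nap1l5 to Herc3 it was 2.22 ± 0.286 in TG and 0.597 ± 0.446 in WT, a difference of 1.62. For Zrsr1 to Commd1 it was 0.359 ± 0.155 in TG and -0.669 ± 0.424 in WT, a difference of 1.03. In these 3 loci the inner imprinted gene thus gained on its host in the transgenic mice. The sources used here give no strand setting, and without one reads from an inner gene and from overlapping exons of its host cannot be told apart.

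**Figure D3:**
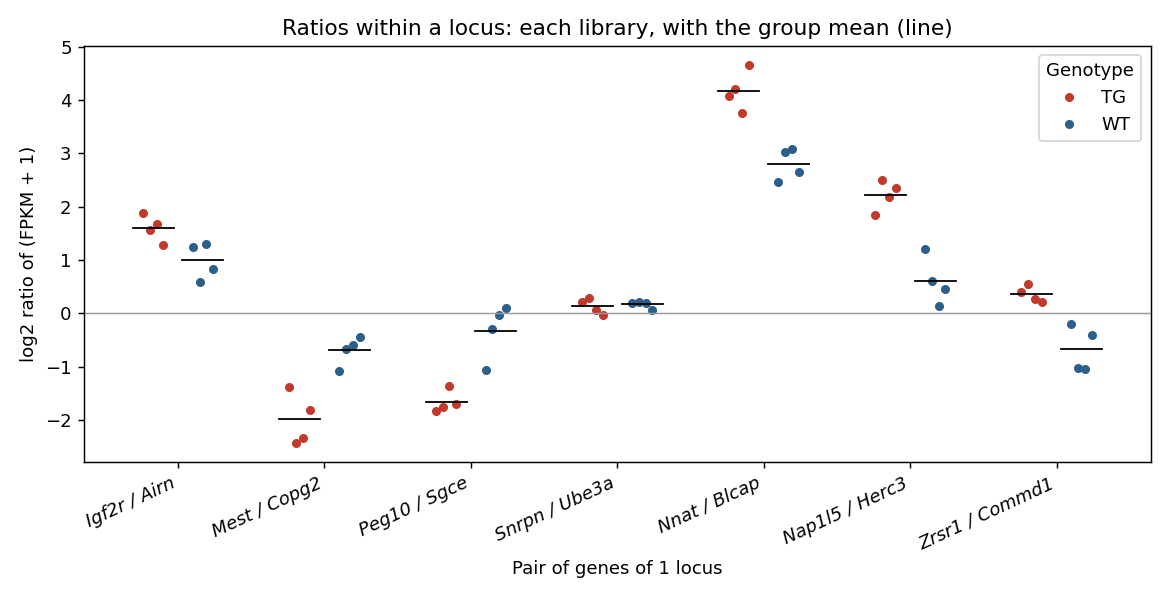
Log2 ratio of (FPKM + 1) between 2 genes of a locus, in each TG library (red, left of each pair) and each WT library (blue), with the group mean as a line, for the 7 pairs tested. TG and WT do not overlap for Mest to Copg2, Peg10 to Sgce, Nnat to Blcap, Nap1l5 to Herc3 and Zrsr1 to Commd1.

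The remaining 2 of the 5 pairs were Peg10 with Sgce and Mest with Copg2. Peg10 and Sgce are read in opposite directions from start sites 98 bases apart on chromosome 6. Peg10, a gene derived from a retrotransposon (4747306 to 4760517, plus strand), stood at 0.283, 0.212, 0.381 and 0.380 FPKM in TG 1, 2, 3 and 5 and at 0.522, 1.03, 1.71 and 1.52 FPKM in WT 1, 2, 3 and 5. Every TG library was below every WT library, on 191 recovered reads over TG and 401 over WT, and the log2 change was -0.71 (SE 0.176, limma adjusted p = 0.00949). Sgce, which encodes epsilon-sarcoglycan of the membrane (4674350 to 4747207, minus strand), stood at 3.55, 3.08, 2.57 and 3.47 FPKM in TG 1, 2, 3 and 5 and at 2.17, 1.499, 1.76 and 1.37 FPKM in WT 1, 2, 3 and 5. Here every TG library was above every WT library, and limma gave a log2 change of 0.63 (SE 0.129, adjusted p = 0.00351). So the 2 paternally read neighbours were called in opposite directions. Their log2 ratio was -1.66 ± 0.201 in TG and -0.323 ± 0.517 in WT, a difference of -1.34 (two-sided exact permutation p = 0.0286, adjusted p = 0.04). Peg10 passed the filter through WT alone, with every TG library under 0.5 FPKM, so its fall and this ratio are a description. Asb4, a maternally read gene of the same locus with a SOCS box, did not pass the filter, at 0.0668 to 0.372 FPKM in TG and 0.0864 to 1.40 FPKM in WT.

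At the Mest locus the maternally read gene rose. Copg2, a subunit of the COPI vesicle coat (chromosome 6, 30747554 to 30896794, minus strand), stood at 6.80, 8.61, 7.70 and 7.86 FPKM in TG 1, 2, 3 and 5 and at 4.04, 4.21, 4.30 and 2.44 FPKM in WT 1, 2, 3 and 5. The groups did not overlap, and the log2 change was 0.90 (SE 0.152, limma adjusted p = 0.00122). Mest, which encodes a protein of the alpha/beta hydrolase fold, stood at 1.999, 0.790, 0.721 and 1.52 FPKM in TG 1, 2, 3 and 5 and at 1.40, 2.26, 2.52 and 1.53 FPKM in WT 1, 2, 3 and 5. The groups overlapped and Mest was not called (log2 change -0.40, SE 0.207, limma adjusted p = 0.150). The log2 ratio of Mest to Copg2 was -1.99 ± 0.488 in TG and -0.696 ± 0.268 in WT (SD, n = 4 each; difference -1.29, two-sided exact permutation p = 0.0286, adjusted p = 0.04). The genes overlap by 912 bases at their ends.

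The locus of Snrpn and Ube3a held the gene with the largest fall of the 22. Ndn encodes necdin, a growth-suppressing protein of the MAGE family that restrains brown preadipocytes in mouse cells (ENSMUSG00000033585, chromosome 7, 62346569 to 62350262, plus strand). It stood at 5.25, 4.83, 4.87 and 5.57 FPKM in TG 1, 2, 3 and 5 and at 27.5, 45.8, 33.4 and 34.1 FPKM in WT 1, 2, 3 and 5. The TG libraries lay close together and far below the WT libraries, with means of 5.13 ± 0.350 FPKM in TG and 35.2 ± 7.67 FPKM in WT (SD, n = 4 each), 6.86-fold lower. The log2 change was -2.54 (SE 0.145, limma adjusted p = 2.51e-06). In bulk tissue fewer cells of a type and less RNA per cell cannot be told apart. Over the same libraries all tested endothelial, smooth muscle and pericyte, erythroid and neutrophil markers fell, as did 5 of 6 brown adipocyte markers and S100b. The progenitor list was mixed, with 3 lower and 1 higher, and the white adipocyte markers rose. The part of any of these in the fall of Ndn was not tested.

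Other genes of that locus were not called or were too low to test. Snrpn, a component of the splicing machinery, stood at 4.14, 5.14, 4.22 and 3.86 FPKM in TG 1, 2, 3 and 5 and at 5.19, 4.72, 5.47 and 4.81 FPKM in WT 1, 2, 3 and 5 (log2 change -0.18, limma adjusted p = 0.189). Ube3a, a ubiquitin ligase gene read from both copies outside neurons, stood at 3.44, 4.02, 3.97 and 3.94 FPKM in TG and at 4.44, 3.91, 4.67 and 4.54 FPKM in WT (log2 change -0.15, adjusted p = 0.230). The groups overlapped for both genes, and the sign of both changes was positive when scaled by all reads and with voom. Their log2 ratio was 0.136 ± 0.140 in TG and 0.167 ± 0.0660 in WT, with overlap (two-sided exact permutation p = 0.714, adjusted p = 0.714). Magel2, a MAGE gene next to Ndn, had 0 reads in the 4 TG libraries and 9 reads over WT, 7 of them in WT 1. Mkrn3, a ring finger gene, had 50 reads over TG and 18 over WT, 16 of these in WT 5. Both were too low to test.

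In the Kcnq1 locus on chromosome 7, 2 maternally read genes were called in opposite directions. Cdkn1c encodes p57, an inhibitor of cyclin-dependent kinases (143458339 to 143461050, minus strand), and stood at 4.83, 4.91, 6.70 and 6.29 FPKM in TG 1, 2, 3 and 5. In WT 1, 2, 3 and 5 it stood at 14.7, 14.5, 8.71 and 29.3 FPKM, all above the TG libraries and with a wide spread set by WT 5. The log2 change was -1.30 (SE 0.291, limma adjusted p = 0.00556). WT 5 also had the highest summed level of endothelial markers, 152 FPKM against 65.2 to 82.4 FPKM in the other WT libraries. It was the highest WT library for the erythroid, progenitor, macrophage, lymphocyte, neuronal and white adipocyte sums as well, and for mitochondrial reads (37.5%). In the brown and shared adipocyte, smooth muscle, skeletal muscle and Schwann cell sums it was the lowest WT library. The part of any of these in the level of Cdkn1c was not tested. Without WT 5 Cdkn1c was still called (limma adjusted p = 0.00335).

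Slc22a18, a membrane transporter of the organic cation family (143473736 to 143499334, plus strand), stood at 3.85, 3.03, 2.96 and 3.16 FPKM in TG 1, 2, 3 and 5 and at 1.40, 0.394, 1.06 and 0.617 FPKM in WT 1, 2, 3 and 5. Every TG library was above every WT library, on 503 reads over TG and 73 over WT, and the log2 change was 1.21 (SE 0.172, limma adjusted p = 0.000433). Phlda2, which limits growth of the placenta, had 0 reads in all 8 libraries, which allows up to 0.0295 FPKM over TG and 0.0535 FPKM over WT (the level of 3 reads, counting error only). Kcnq1ot1, the long RNA that silences this cluster on the paternal chromosome, had 106 reads over TG (0.00611 to 0.0169 FPKM) and 150 over WT (0.0210 to 0.0535 FPKM) and lies wholly inside Kcnq1 on the other strand, so its few reads are uncertain.

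At the H19 and Igf2 locus no gene was called. Igf2, the fetal growth factor, had 1 read over the TG libraries and 4 over WT. H19, the maternally read RNA that carries a microRNA, stood at 2.18, 0.326, 6.07 and 3.30 FPKM in TG 1, 2, 3 and 5 and at 0.483, 1.81, 0.183 and 0.320 FPKM in WT 1, 2, 3 and 5. The groups overlapped through TG 2 alone, which lay below WT 1 and WT 2. H19 was not called (log2 change 1.07, SE 0.468, limma adjusted p = 0.0895). It passed the threshold without TG 2 (1.52, adjusted p = 0.00967), without WT 2 (1.35, adjusted p = 0.0499) and when scaled by all reads (1.27, adjusted p = 0.0446), over a range of 0.00967 to 0.218. WT 2, the WT library highest in H19, had the highest skeletal muscle marker sum of all, at 2749 FPKM, while in TG the muscle markers stood at 206, 156, 277 and 1565 FPKM in TG 1, 2, 3 and 5. The TG library highest in H19 was TG 3, and that highest in muscle markers was TG 5. The part of muscle in the level of H19 was not tested.

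The Dlk1 and Dio3 locus on chromosome 12 was below the filter in full. Dlk1, the preadipocyte factor, had 15 reads over TG and 47 over WT, at 0 to 0.0774 FPKM in TG and 0.0300 to 0.309 FPKM in WT. The long noncoding RNAs of the maternal chromosome, which host microRNAs and small nucleolar RNAs, were Meg3 with 0.0313 to 0.106 FPKM in TG and 0.0939 to 0.700 FPKM in WT, Rian with 0.0906 to 0.449 FPKM in TG and 0.400 to 0.925 FPKM in WT, and Mirg with 0.00648 to 0.0658 FPKM in TG and 0.0306 to 0.156 FPKM in WT. WT 5 was the highest library for all 4 genes, and the genotypes overlapped for each. Of the 13 genes under the filter 12 could be fitted when no filter was used, and 0 were called by limma, with 2 at an unadjusted p below 0.05 and a lowest adjusted p of 0.130. The same fit called 2521 genes higher and 2424 lower of all 26296 fitted.

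**Figure D4:**
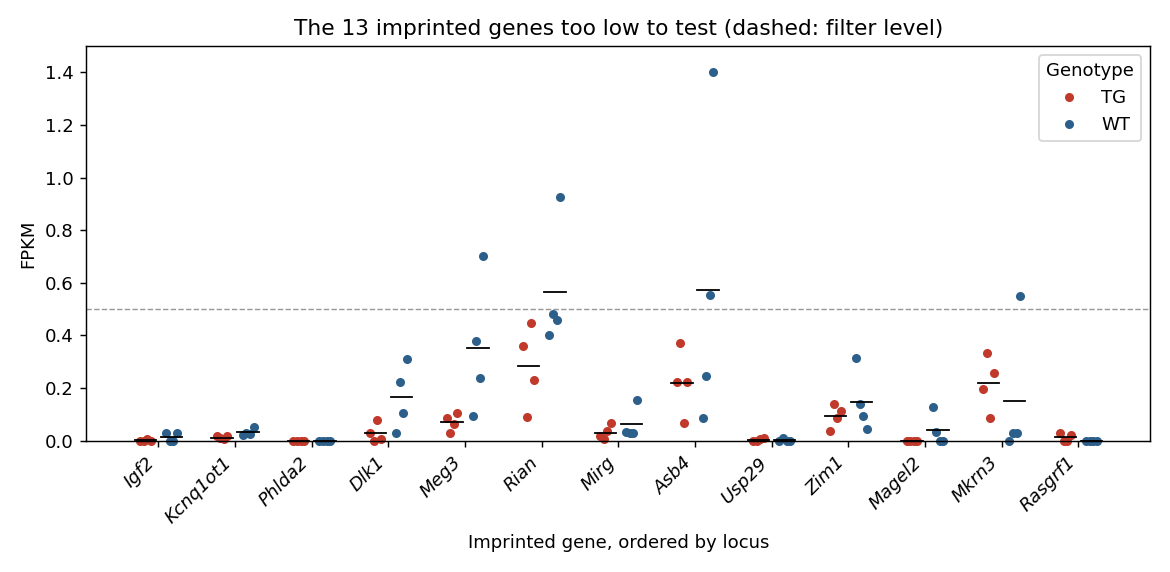
FPKM of the 13 imprinted genes that did not pass the filter, in each TG library (red, left of each pair) and each WT library (blue), with the group mean as a line and the filter level of 0.5 FPKM dashed. Asb4, Rian, Meg3 and Mkrn3 lay above the filter level in WT 5, as did Asb4 in WT 3, and Phlda2 lies at 0 throughout.

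Plagl1 and Grb10, growth regulators that stand alone at their loci here, rose with no overlap. Plagl1, a zinc finger transcription factor that slows growth (chromosome 10, 13060504 to 13131694, plus strand), stood at 1.63, 1.70, 1.47 and 1.99 FPKM in TG 1, 2, 3 and 5 and at 0.391, 0.228, 0.337 and 0.425 FPKM in WT 1, 2, 3 and 5, a 4.91-fold difference of the means. The log2 change was 1.00 (SE 0.106, limma adjusted p = 7.25e-05), on 1202 reads over TG and 133 over WT. Plagl1 passed the filter through TG alone, with every WT library under 0.5 FPKM, so its rise is a description. Grb10, an adaptor that dampens signals of the insulin and IGF1 receptors (chromosome 11, 11930508 to 12038683, minus strand), stood at 5.20, 4.37, 4.15 and 5.20 FPKM in TG 1, 2, 3 and 5 and at 1.74, 1.81, 1.13 and 2.77 FPKM in WT 1, 2, 3 and 5. The log2 change was 1.03 (SE 0.167, limma adjusted p = 0.000973). The more CpG-rich of its 2 upstream windows is the last of the sequences printed above.

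Impact, which restrains the amino acid sensing kinase GCN2 (chromosome 18, 12972252 to 12992948, plus strand), had the lowest SD for its mean in TG among the 22 genes, at 11.8, 11.1, 11.3 and 11.2 FPKM in TG 1, 2, 3 and 5 against 6.90, 4.98, 6.95 and 6.01 FPKM in WT 1, 2, 3 and 5. All TG libraries were above all WT libraries (log2 change 0.79, SE 0.112, limma adjusted p = 0.000449). Peg3, a zinc finger protein gene (chromosome 7, 6703892 to 6730431, minus strand), stood at 1.94, 3.21, 1.56 and 2.43 FPKM in TG 1, 2, 3 and 5 and at 1.04, 1.36, 0.937 and 1.53 FPKM in WT 1, 2, 3 and 5. The lowest TG library was only just above the highest WT library (log2 change 0.55, SE 0.165, limma adjusted p = 0.0227). The call of Peg3 was lost without TG 2 (adjusted p = 0.0584), TG 5 (0.0584), WT 1 (0.0502) or WT 3 (0.0568), leaving out WT 2 and TG 5 together (0.0818) and testing with no filter (0.0678), over a range of 0.00101 to 0.0818. Usp29, read in the other direction from a start 146 bases away, had 8 reads over TG and 3 over WT, and Zim1, the maternally read zinc finger gene beside them, 68 over TG and 59 over WT.

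The receptor Igf2r, which carries IGF2 and lysosomal enzymes to lysosomes, was not called (log2 change 0.21, SE 0.150, limma adjusted p = 0.288). It stood at 5.22, 4.32, 3.45 and 3.81 FPKM in TG 1, 2, 3 and 5 and at 2.54, 3.62, 3.73 and 4.14 FPKM in WT 1, 2, 3 and 5, with overlap. Igf2r passed the threshold as higher when scaled by all reads (0.55, adjusted p = 0.0162) and with voom (0.69, adjusted p = 0.00844), over a range of 0.00844 to 0.593. Airn, the antisense RNA that silences Igf2r on the paternal chromosome, overlaps it by 28354 bases and stood at 0.688, 0.801, 0.389 and 0.970 FPKM in TG 1, 2, 3 and 5 and at 0.496, 2.07, 0.920 and 1.89 FPKM in WT 1, 2, 3 and 5. It was not called (log2 change -0.40, SE 0.231, adjusted p = 0.185); without WT 1 it was called lower (-0.60, adjusted p = 0.0337), over a range of 0.0337 to 0.552. The log2 ratio of Igf2r to Airn was 1.60 ± 0.248 in TG and 0.991 ± 0.340 in WT, a difference of 0.61 that did not pass (two-sided exact permutation p = 0.0571, adjusted p = 0.0667).

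The remaining tested genes were not called either. Gnas, whose transcripts include the alpha subunit of the stimulatory G protein, stood at 3.37 to 4.51 FPKM in TG and 4.36 to 5.93 FPKM in WT (log2 change -0.31, SE 0.124, limma adjusted p = 0.0678), and was called lower without WT 1 (-0.37, adjusted p = 0.0482), over a range of 0.0482 to 0.844; its sign was positive when scaled by all reads (0.04) and with voom (0.05). Inpp5f, a phosphoinositide phosphatase gene, stood at 1.21 to 1.33 FPKM in TG and 1.02 to 1.29 FPKM in WT (log2 change 0.10, adjusted p = 0.426). Trappc9, a subunit of a vesicle tethering complex, stood at 4.16 to 5.77 FPKM in TG and 4.71 to 5.52 FPKM in WT (log2 change -0.04, adjusted p = 0.808). Inpp5f passed as higher when scaled by all reads (0.33, adjusted p = 0.0267) and with voom (0.61, adjusted p = 0.0139), and Trappc9 with voom (0.38, adjusted p = 0.0463), over ranges of 0.0139 to 0.590 and 0.0463 to 0.983. Rasgrf1, a Ras exchange factor gene, had 14 reads over TG and 0 over WT.

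Of the genes usually read from the paternal chromosome alone, 19 of the 35, 12 were tested, of which 7 rose, 2 fell and 3 were not called. Of the 11 maternally read genes 5 were tested, of which 2 rose, 1 fell and 2 were not called. Both sets thus held calls in each direction, against 22.3% higher and 21.8% lower over all tested genes. The paternal counts include Plagl1 and Peg10, which passed the filter only through the genotype where they are high. The remaining 5 genes change allele with tissue or transcript: Grb10 rose, and Gnas, Inpp5f, Trappc9 and Ube3a were not called.

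A second list held 43 further imprinted genes and neighbours of these loci that were in the table, of which 21 were tested, 9 rose, 7 fell and 5 were not called, with a median log2 change of 0.02, against 22.3% higher and 21.8% lower over all tested genes. Scaled by all reads, 10 of the 21 rose and 1 fell, against 5536 higher and 1442 lower of all 12508 genes. Around Peg10 and Sgce, Pon2, a paraoxonase, rose to 10.2 ± 0.243 FPKM in TG against 4.68 ± 0.453 FPKM in WT (SD, n = 4 each; log2 change 0.98, limma adjusted p = 4.45e-05) and Casd1, a sialic acid acetyltransferase, rose by 0.88, while Tfpi2, a protease inhibitor, fell to 1.15 ± 0.0930 FPKM in TG against 5.89 ± 2.40 FPKM in WT (log2 change -1.62, adjusted p = 0.000286). Slc22a3, an organic cation transporter beside Igf2r, rose to 24.1 ± 3.79 FPKM in TG against 6.92 ± 2.72 FPKM in WT (log2 change 1.72, adjusted p = 0.000444). Inside Trappc9, which was not called, the noncoding Peg13 rose by 0.88 (8.32 ± 0.720 FPKM in TG, 4.13 ± 1.00 FPKM in WT; adjusted p = 0.00139). Next to it Chrac1, a chromatin remodelling subunit, fell by 0.59 on the log2 scale and Ago2, the slicer of RNA silencing, fell by 0.50. Both calls were lost when scaled by all reads and with voom, with adjusted p up to 0.299 for Chrac1 and 0.266 for Ago2.

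Genes for proteins that set or keep imprints formed a further list. Of 20 such genes 14 were tested, 1 rose, 1 fell and 12 were not called, against 44.1% called over all tested genes, and the median log2 change was 0.16. Ehmt2, a histone H3 lysine methyltransferase, rose to 19.6 ± 0.827 FPKM in TG against 13.1 ± 0.803 FPKM in WT (SD, n = 4 each; log2 change 0.54, limma adjusted p = 0.000979). Uhrf1, which brings DNA methyltransferase 1 to replicating DNA, fell to 0.285 ± 0.0761 FPKM in TG against 0.903 ± 0.422 FPKM in WT (-0.54, adjusted p = 0.0184). It passed the filter through WT alone, with every TG library under 0.5 FPKM, so its fall is a description, and the call was lost without TG 3 (adjusted p = 0.0506, over a range of 0.00784 to 0.0506). Ctcf, the insulator protein of the H19 control region, and Zfp445, a zinc finger protein that guards imprints, were not called (0.27 and 0.24, adjusted p = 0.0753 and 0.102), and both were called higher without WT 5, when scaled by all reads and with voom. Scaled by all reads, 9 of the 14 were called higher and 1 lower, under the same scaling that called 5536 of all 12508 genes higher.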

How the data were processed

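RNA of brown adipose tissue from 4 TG and 4 WT mice was taken up in TRIzol and made into libraries with an Illumina TruSeq kit, per the labels' protocols. The submitters' processing notes name bcl2fastq, HISAT2 2.0.5, featureCounts 1.5.0-p3 and the build mm10; the sources used here do not give their order, the strand setting or the annotation release. The authors deposited FPKM per gene; how the divisor per library was obtained is not given. Multiplied by gene length, each library's values became whole multiples of the value of 1 read (within 1.61e-07 of a whole number), which gave back the reads. Their sum, over the divisor that the FPKM imply, was 0.822 to 0.883 in TG and 1.02 to 1.22 in WT, so the deposited values hold a further scaling.

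The 2 genotypes were compared by limma 3.58.1 under R 4.3.3 (two-sided, moderated with an intensity trend) on log2(FPKM + 1) for genes at 0.5 FPKM or more in at least 4 libraries, on the whole table, with no fold threshold. The procedure was tested on simulated data. Ratios within a locus were compared by exact permutation with scipy 1.17.1. Figures were drawn with matplotlib 3.10.9. The 35 genes, the 2 further gene lists, the pairs and the 13 marker lists were chosen with earlier results of these data known. All 35 genes could be named, with the 8 further imprinted genes and neighbours and the 4 regulators of lowest p; Herc3 and Commd1 were named as members of pairs. Each p measures the spread between these mice. No sample was left out. Alternatives were a pseudocount of 0.1, no filter, 4 scalings (all recovered reads, reads outside the mitochondrial chromosome, upper quartile, quantile normalisation), no trend, voom on the recovered reads, the replicate number as a block, leaving out each library, and leaving out WT 2 and TG 5, the libraries with the highest muscle marker sums of their groups. Coordinates are those of the deposited table; 34 of the 35 genes had the same coordinates in GENCODE M21. Overlapping genes may share reads.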

Additional observations from a re-analysis of the deposited data

Results flagged for a closer look

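In 58 groups of 4 values (the FPKM of each tested gene and the ratio of each pair, in each genotype), 2 had a library far from the other 3, where chance gives about 1 in 20. Copg2 stood at 2.44 FPKM in WT 5, below 4.04 to 4.30 FPKM in the other WT libraries. Ube3a stood at 3.44 FPKM in TG 1, below 3.94 to 4.02 FPKM in the other TG libraries.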

How the results depend on the processing

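Of the 13 imprinted genes called, 11 were called in the same direction under all 18 alternatives, the exceptions being Peg3 and Zrsr1, and 0 reversed. Among the 11, Plagl1 and Peg10 passed the filter only through the genotype where they are high. The counts were 8 to 13 higher and 3 lower of 22 genes tested (34 with no filter), except that without WT 1 the lower count was 5. Leaving out each library in turn gave 9 to 11 higher and 3 to 5 lower. Over all genes the counts moved to 5536 higher and 1442 lower with division by all recovered reads and to 5629 and 1447 with voom. Leaving out each library gave 2278 to 2743 higher and 2291 to 2819 lower genes.

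For the further imprinted genes and neighbours the lower count of 7 moved to 1 (all recovered reads, voom), 4 (reads outside the mitochondrial chromosome, upper quartile) and 3 (without WT 2 and TG 5), and ran from 3 to 8 with a library left out. For the regulators 9 were higher with all recovered reads and with voom, 2 with the upper quartile and with quantile normalisation, 2 were lower with no filter, and leaving out a library gave 1 to 3 higher and 0 to 1 lower. The cause was not tested.

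Signs turned only for genes not called: Snrpn (0.17 with all recovered reads, 0.20 with voom), Ube3a (0.19 and 0.24), Gnas (0.0371 and 0.0460) and Trappc9 (0.32 and 0.38, 0.00705 with the upper quartile and 0.0226 without WT 2 and TG 5). With a library left out Trappc9 ran from -0.106 to 0.0244, positive without TG 3 and without TG 5. The ratio of Snrpn to Ube3a ran from -0.0819 to 0.0224 with a library left out, positive without TG 5, and was 0.0401 without WT 2 and TG 5. The 5 ratios that differed kept their sign with each library left out, where the exact permutation test of 4 against 3 cannot go below p = 0.0571, and with a pseudocount of 0.1 the number past the threshold was again 5.

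The fit with the replicate number as a block called 10 higher and 3 lower of the 22 genes. Among the 21 further imprinted genes and neighbours tested it called 8 higher and 3 lower, and over all 12508 genes 2389 higher and 2458 lower. Same-numbered libraries did not deviate together (r = -0.19, -0.17, 0.04 and -0.24 for numbers 1, 2, 3 and 5). So no pairing by number was seen, but so few correlations cannot show that equal numbers share nothing. Depth limits most of the 13 genes under the filter, which rest on few reads. Rian had 476 reads over TG and 508 over WT, and Meg3 121 and 314. Their lengths are 18234 and 18089 bases, and the filter is on FPKM, which is scaled by gene length.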
